A study of Homo sapiens with 12 samples.

Results

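The mRNAs described here encode subunits of eIF3 itself: EIF3A, EIF3B, EIF3H, EIF3K and EIF3M. They were taken by gene name from the authors' table of clusters, made from RNA crosslinked to human eIF3. These 5 genes gave 31 of the 1477 clusters, among 480 gene names. All 31 lay in exons of mRNA, and 1230 clusters of the table did so (5′ UTR, start codon, coding exon or 3′ UTR). Protein names are written with a lower-case e below (eIF3a) and mRNAs in capitals (EIF3A).

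The source was the transformed line 293T, derived from human embryonic kidney. Its growth medium held 100 µM 4-thiouridine for 14 h before harvest. This analog of uridine enters new RNA and is joined to a bound protein by ultraviolet light. The cells were irradiated with 0.15 J per square cm on ice. All libraries were made after precipitation with the same antibody against eIF3b, RNase T1 digestion and excision of the complexes from a gel. Per the labels, 12 libraries fall into groups for eIF3b, eIF3d, eIF3g and eIF3a with 3 replicates each. No control library, such as a sample without crosslinking, is among them. The labels do not say whether replicates were separate cultures. The table has a single value per cluster and subunit, with no replicate column, so the spread between replicates is unknown and no difference between groups could be tested.

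eIF3 is the largest of the initiation factors. It binds the small ribosomal subunit, helps to recruit mRNA and keeps the ribosomal subunits apart until the start codon has been found. Its core is built from subunits with PCI or MPN domains, among them eIF3a, eIF3h, eIF3k and eIF3m, while eIF3b, eIF3d and eIF3g lie outside this core. Besides its part in general initiation, eIF3 is known to contact particular cellular mRNAs, mostly in their 5′ UTRs. In this method a crosslinked uridine is read as C, so T-to-C conversions in the reads mark the contact.

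The table reported 19187 reads in clusters for eIF3b, 24150 for eIF3d, 62405 for eIF3g and 15132 for eIF3a. Reads outside clusters are not tabulated, so depth per library is unknown. No cluster had fewer than 8 reads, and a site without a cluster may have had reads below the authors' threshold. None of 8 genes associated with 293T cells (among them the neurofilament genes NEFL and NEFM) and none of 8 markers of other cells had a cluster, so the table does not bear on cell identity. The level of each mRNA in the cells was not measured here, and high mRNA abundance and frequent crosslinking cannot be told apart in these reads.

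The first question was where on the eIF3 subunit mRNAs the clusters lay. Most were in coding exons or 3′ UTRs, whereas most other mRNA clusters were in 5′ UTRs. Of the 31 clusters, 20 were in coding exons, 6 in 3′ UTRs and 5 in 5′ UTRs, and none was called at a start codon. Coding exons and 3′ UTRs together thus gave 26 of 31, against 147 of the 1199 other mRNA clusters, and 14.1% of all mRNA clusters carried either annotation. Only EIF3B and EIF3M had a 5′ UTR cluster. EIF3A accounted for 13 of the 26, and without it the count was 13 of 18. All of the 3′ UTR clusters except that of EIF3H were on EIF3M. They lay at sites upstream of a site called coding, as described below, so their annotation is uncertain.

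By subunit, coding or 3′ UTR clusters were 9 of 9 in eIF3b (16.3% of all its mRNA clusters), 6 of 7 in eIF3d (13%), 4 of 6 in eIF3g (11.9%) and 7 of 9 in eIF3a (15.7%). Clusters at the same site in several subunits are not independent of each other, since the antibody was the same.

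**Figure D1:**
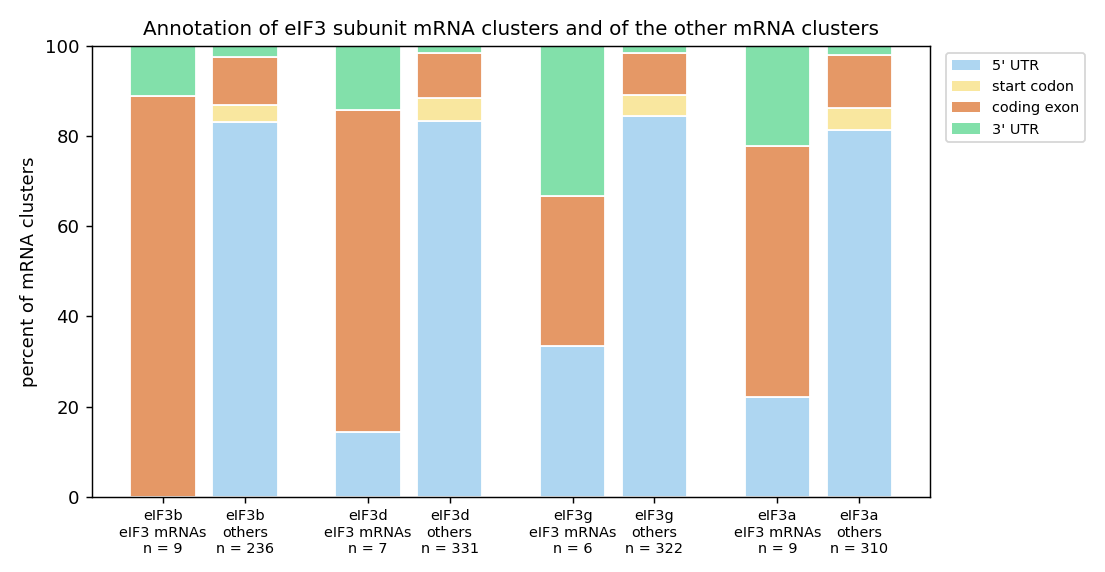
Stacked bars show the percent of mRNA clusters with each annotation, for the eIF3 subunit mRNAs (left bar of each pair) and for the other mRNA clusters (right bar), in eIF3b, eIF3d, eIF3g and eIF3a. Blue 5′ UTR segments make up 83.1% of the other mRNA clusters over all subunits, while coding exon and 3′ UTR segments fill most of the bars of the eIF3 subunit mRNAs.

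Within coding exons EIF3A alone held most of the reads in eIF3b (5464 of 6054) and in eIF3d (6132 of 7039). The share of coding reads on eIF3 subunit mRNAs was 92.7% in eIF3b (95% Wilson interval 92.1 to 93.4, 5614 of 6054 reads), 88.6% in eIF3d (87.8 to 89.3), 19.02% in eIF3g (16.6 to 21.7) and 36.9% in eIF3a (34.3 to 39.6). Without EIF3A it was 25.4% in eIF3b (150 of 590 reads), 11.4% in eIF3d (103 of 907), 14.7% in eIF3g (131 of 893) and 9.64% in eIF3a (85 of 882). In 3′ UTRs their share was 21.6% in eIF3b (15.05 to 29.9, 25 of 116 reads), 41.8% in eIF3d (33.0 to 51.2), 63.9% in eIF3g (58.0 to 69.4) and 81.8% in eIF3a (78.2 to 84.9). In eIF3b, eIF3d and eIF3g these 3′ UTR reads came from EIF3M alone, from sites called 3′ UTR that lie upstream of a site called coding, as described below. In eIF3a the single EIF3H cluster gave 370 of the 418 reads. In 5′ UTRs it was 0.441% in eIF3d, 1.14% in eIF3g and 0.376% in eIF3a, and eIF3b listed no such cluster. Intervals here and below cover counting error only and treat reads as independent. Reads are not independent molecules, so the intervals may be too narrow.

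Over all mRNA clusters, the eIF3 subunit mRNAs held 38.3% of the reads in eIF3b (37.5 to 39.1, 5639 of 14713), 31.7% in eIF3d (31.0 to 32.3, 6334 of 20006), 3.41% in eIF3g (3.12 to 3.72, 494 of 14495) and 7.49% in eIF3a (7.04 to 7.97, 922 of 12304). They made up 3.67%, 2.07%, 1.83% and 2.82% of the clusters in the same order. Pooled over the 4 subunits, EIF3A alone carried 89.8% of their reads, but it had only 48 of 494 in eIF3g and 382 of 922 in eIF3a. Without EIF3A in either number the shares were 1.89% in eIF3b, 1.46% in eIF3d, 3.09% in eIF3g and 4.53% in eIF3a.

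The clusters fell into 13 sites when those overlapping by at least 1 nt on the same strand were joined. Sites are numbered below from the 5′ to the 3′ end of each gene. EIF3A had 5 sites, EIF3M 4, EIF3B 2, and EIF3H and EIF3K a single site each. Having 2 or more sites was less common among other genes: 3 of the 5 eIF3 genes had them, against 46 of 398 others, and 12.2% of all genes with an mRNA cluster. The highest number among the other genes was 4, in the 4 genes SCD, MTPN, ZNF503 and AMOT, a choice of names made after seeing the values. Of the 13 sites 3 were listed for all 4 subunits, 3 for 3 subunits, 3 for 2 and 4 for a single subunit. Over all mRNA sites 30.2% were listed for all 4, so this count was not raised.

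**Figure D2:**
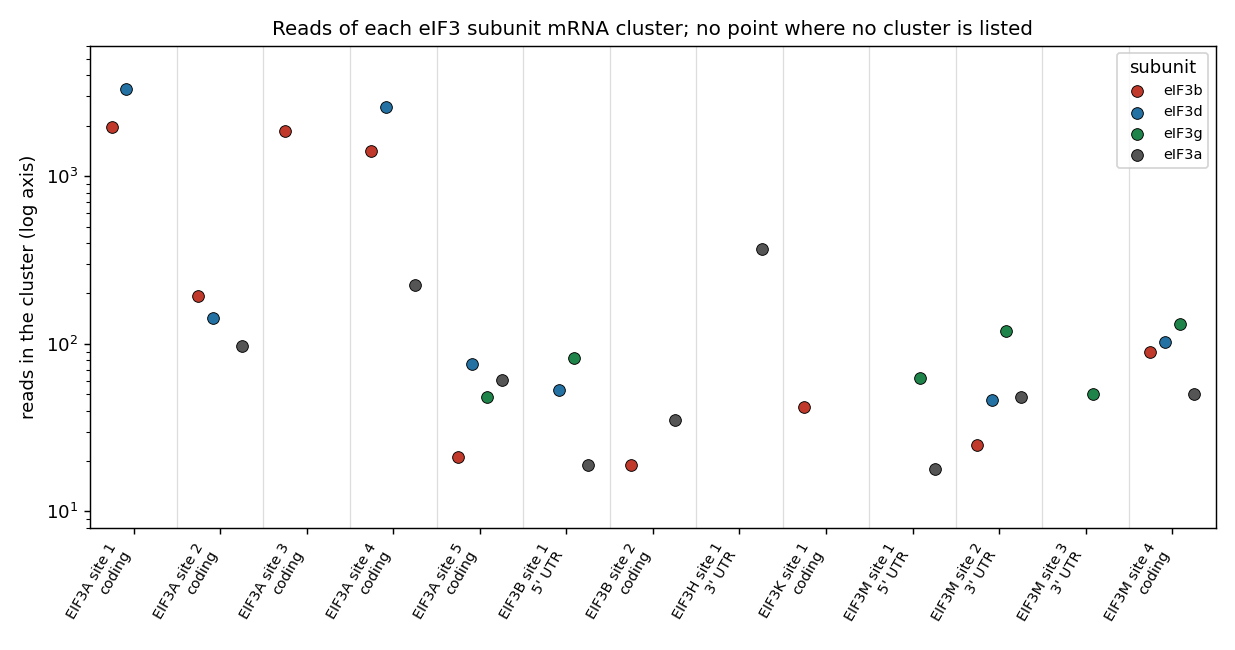
Points give the reads of each eIF3 subunit mRNA cluster on a log axis, by site along the horizontal axis and coloured by subunit, with no point where no cluster is listed. EIF3A sites 1, 3 and 4 hold values from 1411 to 3315 reads in eIF3b and eIF3d, while every other point lies between 18 and 370 reads.

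EIF3A encodes the scaffold subunit of the core, a PCI protein. Its 13 clusters were all called in coding exons, on the minus strand of chromosome 10 of the hg19 build, and spread over 12615 nt of the genome. Site 1 ran from 120833313 to 120833368 in eIF3b, with 1963 reads, and from 120833325 to 120833345 in eIF3d, with 3315 reads. These were the strongest mRNA clusters of both subunits, and neither eIF3g nor eIF3a listed the site.

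Site 2 followed 228 nt further along, between 120833010 and 120833085. It held 194 reads in eIF3b, 142 in eIF3d and 97 in eIF3a. Site 3, from 120832520 to 120832557, was listed for eIF3b alone, with 1875 reads, the second strongest mRNA cluster of that subunit. No other subunit listed a cluster there, although eIF3d had more reads than eIF3b at sites 1 and 4.

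Site 4 lay 3352 nt beyond site 3, between 120829052 and 120829168, and had 1411 reads in eIF3b, 2599 in eIF3d and 224 in eIF3a. The clusters of the 3 subunits were placed differently within it. The eIF3b cluster was 106 nt wide, wider than any other mRNA cluster of eIF3b. The eIF3d cluster was 24 nt wide at the 3′ edge and the eIF3a cluster 59 nt wide at the 5′ edge. These last clusters did not overlap but were separated by 33 nt, and only the eIF3b cluster joined them.

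Site 5 was 8262 nt further 3′, between 120820753 and 120820790, and was the only EIF3A site in all 4 lists. It held 21 reads in eIF3b, 76 in eIF3d, 48 in eIF3g and 61 in eIF3a. The distances are genomic and include introns.

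**Figure D3:**
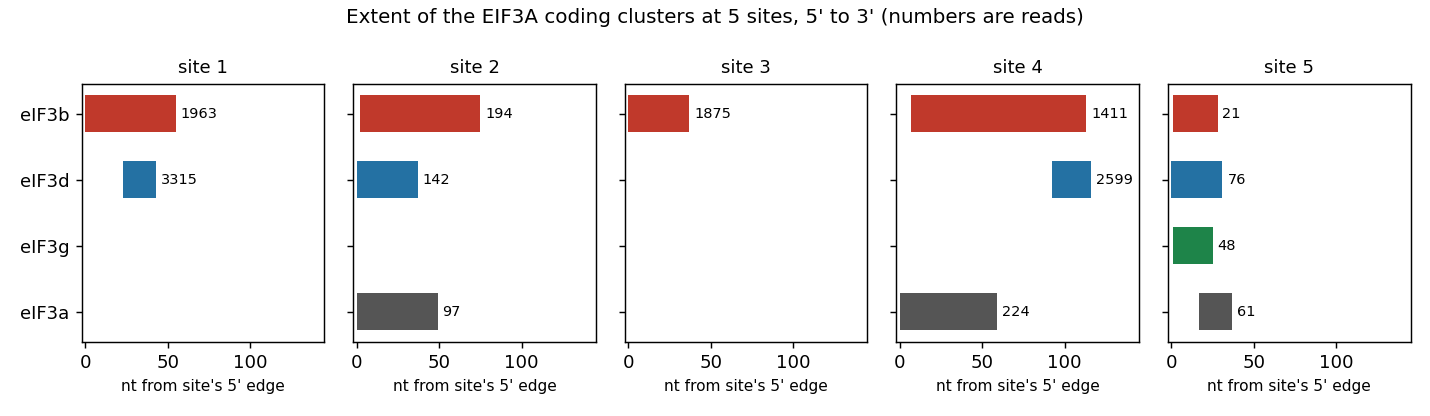
Each panel is a site in the coding exons of EIF3A, drawn in nt from the 5′ edge of the site, with a bar for the extent of each subunit's cluster and its reads beside the bar. At site 4 the eIF3d bar (24 nt, 2599 reads) and the eIF3a bar (59 nt, 224 reads) do not overlap, and eIF3g appears at site 5 only.

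Summed over its sites, EIF3A had 5464 reads in eIF3b, 6132 in eIF3d, 48 in eIF3g and 382 in eIF3a. It ranked first of 217 genes in eIF3b, first of 299 in eIF3d, 44 of 288 in eIF3g and 3 of 277 in eIF3a. On the scale of log2(reads + 1), eIF3b was 3.83 above eIF3a (95% counting interval 3.69 to 3.98) and eIF3d was 4.00 above eIF3a (3.85 to 4.15). The same difference was taken over the other genes listed for both subunits, and genes listed for only 1 of them were left out. For eIF3b it had a median of -0.35 and a highest value of 2.37 (168 genes). For eIF3d the median was 0.12 and the highest value 2.67 (223 genes). EIF3A thus stood above every other gene compared in both. For eIF3g against eIF3a the EIF3A difference was -2.97 (-3.40 to -2.53). This was below all 210 other genes listed for both, whose lowest value was -2.41. These differences share the eIF3a values, and as places among genes they do not depend on a scaling between lists.

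The large difference for eIF3b came from sites 1, 3 and 4, and that for eIF3d from sites 1 and 4. The negative value for eIF3g over eIF3a came from sites 2 and 4. There eIF3a had 97 and 224 reads and eIF3g had no cluster. At site 5 the log2 difference was -1.49 for eIF3b over eIF3a (21 and 61 reads), at percentile 10.4 of the other sites. For eIF3d over eIF3a it was 0.31 there (76 and 61 reads, percentile 60.1) and for eIF3g over eIF3a -0.34 (48 and 61 reads, percentile 44.2). At site 4 it was 2.65 for eIF3b over eIF3a (percentile 99.5) and 3.53 for eIF3d over eIF3a, above all 248 other sites. The excess of eIF3b and eIF3d reads on EIF3A was therefore not uniform along the mRNA.

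EIF3M encodes another PCI subunit of the core. Its 11 clusters lay at 4 sites on the plus strand of chromosome 11, over 15259 nt. Site 1 (32608651 to 32608677, 5′ UTR) had 63 reads in eIF3g and 18 in eIF3a. Site 2 (32610227 to 32610279, called 3′ UTR) had 25 reads in eIF3b, 46 in eIF3d, 120 in eIF3g and 48 in eIF3a. Site 3 (32622279 to 32622318, called 3′ UTR) was listed for eIF3g alone, with 50 reads. Site 4 (32623862 to 32623910, coding exon) had 89 reads in eIF3b, 103 in eIF3d, 131 in eIF3g and 50 in eIF3a.

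The sites called 3′ UTR lay upstream of the coding site, so these annotations cannot all come from a single transcript of the usual order. The sources used here do not name the transcripts behind the authors' annotation. At each of the EIF3M sites in more than a single list, eIF3g had the most reads. Summed, EIF3M had 114 reads in eIF3b, 149 in eIF3d, 364 in eIF3g and 116 in eIF3a, and it ranked 4 of 288 genes in eIF3g. For eIF3g over eIF3a the log2 difference was 1.64 (1.34 to 1.94), exceeded by 15 of 210 other genes. For eIF3b and eIF3d over eIF3a it was -0.02 and 0.36, at percentiles 65.5 and 62.8.

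EIF3H, an MPN subunit of the core, had a single cluster, in eIF3a. It spanned 75 nt of the 3′ UTR (chromosome 8, 117671060 to 117671135, minus strand). Its 370 reads made it the third strongest mRNA cluster of eIF3a, with 3.01% of the mRNA reads (2.72 to 3.32). The other 3′ UTR clusters of eIF3a, outside the eIF3 genes, had at most 24 reads.

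EIF3K, a small PCI subunit of the core, also had a single cluster, in eIF3b. It lay in a coding exon (chromosome 19, 39116693 to 39116730, plus strand) and had 42 reads, 0.285% of the mRNA reads of eIF3b (0.211 to 0.386). It ranked 50 among the 245 mRNA clusters of that subunit.

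EIF3B encodes a subunit outside the core, which has an RNA recognition motif and is the target of the antibody used for every library. Its 5′ UTR site (chromosome 7, 2400346 to 2400386, plus strand) had 53 reads in eIF3d, 82 in eIF3g and 19 in eIF3a, and no cluster in eIF3b. Its coding site, 18644 nt downstream (2419030 to 2419057), had 19 reads in eIF3b and 35 in eIF3a. The lists for eIF3d and eIF3g therefore held only the 5′ UTR site, eIF3b only the coding site, and eIF3a both. Summed reads of EIF3B were 19, 53, 82 and 54 in eIF3b, eIF3d, eIF3g and eIF3a. Over eIF3a, its log2 difference was -1.46 for eIF3b, -0.03 for eIF3d and 0.59 for eIF3g, at percentiles 10.7, 42.2 and 75.7 of the other genes.

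Reads per cluster were next set against the other mRNA clusters of the same subunit, as percentiles that count the share of other clusters below. Most clusters of the eIF3 subunit mRNAs had more reads than the median of the others. This held for 9 of 9 in eIF3b (50.2% of all its mRNA clusters), 7 of 7 in eIF3d (48.8%), 6 of 6 in eIF3g (47%) and 7 of 9 in eIF3a (50.8%). The exceptions were EIF3B site 1 and EIF3M site 1 in eIF3a, with 19 and 18 reads against a median of 20.5.

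Median reads were 89 for the eIF3 subunit mRNAs and 17 for the others in eIF3b, 103 and 22 in eIF3d, 72.5 and 19 in eIF3g, and 50 and 20.5 in eIF3a. The median percentile was 90.7 in eIF3b, 94.7 in eIF3d, 92.9 in eIF3g and 83.4 in eIF3a. EIF3A raised these most in eIF3b, where the median without it was 74.0. Per nt of cluster, which takes the width into account, the median percentiles were 85.2, 92.4, 91.1 and 79.2 in the same order. No list test was made, because the genes were chosen with results of these data known.

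The clusters were also wide. Their median width, as end minus start, was 37 nt in eIF3b, 31 in eIF3d, 37 in eIF3g and 37 in eIF3a, against 25, 24, 24 and 24 for the other mRNA clusters. The range among them was from 20 nt, at EIF3A site 5 and EIF3B site 2 in eIF3a and EIF3A site 1 in eIF3d, to 106 nt at EIF3A site 4 in eIF3b.

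The next question was how many T-to-C conversions the reads carried. In eIF3b, eIF3g and eIF3a, clusters of the eIF3 subunit mRNAs carried fewer per read than most other mRNA clusters. All 24 had under 0.5 conversions per read, as did 29 of the 868 others, and 5.94% of all mRNA clusters of these subunits. By subunit this was 9 of 9 in eIF3b (6.12% of all its mRNA clusters), 6 of 6 in eIF3g (4.57%) and 9 of 9 in eIF3a (7.21%). The threshold was chosen with the values known. All 24 were also under 0.25, as were 14 of the 868 others and 4.26% of all mRNA clusters of these subunits. Median conversions per read were 0.0714 in eIF3b, 0.0544 in eIF3g and 0.111 in eIF3a, against 1.05, 1.03 and 1.03 for the other mRNA clusters.

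At EIF3A the strongest sites of eIF3b had 289 conversions in 1963 reads (site 1), 226 in 1875 (site 3) and 174 in 1411 (site 4). These are 0.147, 0.121 and 0.123 conversions per read, a narrow range. Site 2 in eIF3b had 27 in 194 reads, or 0.139. In eIF3a, EIF3A had 12 conversions in 97 reads at site 2, 15 in 224 at site 4 and 14 in 61 at site 5. The last value, 0.230 per read, was the highest of all 24, and 6 of the 310 other mRNA clusters of eIF3a lay below it.

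EIF3H had 18 conversions in 370 reads in eIF3a, or 0.0486 per read (95% Poisson interval 0.0288 to 0.0769), lower than all 310 others. EIF3K had 3 in 42 reads in eIF3b. EIF3M site 4 had 5 in 89 reads in eIF3b, 8 in 131 in eIF3g and 6 in 50 in eIF3a. EIF3B site 1 had 4 in 82 reads in eIF3g and 1 in 19 in eIF3a. For 14 of the 24 clusters no other mRNA cluster of the subunit was lower, and for the rest at most 6 were. Counts of conversions are small, with 5 or fewer in 17 of all 31 clusters, so values of single weak clusters are imprecise: for EIF3B site 1 in eIF3a the interval was 0.00133 to 0.293.

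The values were also set beside clusters of the same annotation and of similar reads. In coding exons the median was 0.0960 in eIF3b (8 clusters), 0.0514 in eIF3g (2) and 0.120 in eIF3a (5), against 1.0, 1.10 and 1.07 for the other coding clusters. In 3′ UTRs few clusters could be compared. The eIF3b value was 0.040, from 1 cluster with 1 conversion in 25 reads. The median was 0.0508 in eIF3g and 0.0556 in eIF3a, from 2 clusters each. Other genes had 1.14, 1.0 and 1.12 in eIF3b, eIF3g and eIF3a, from 6, 5 and 6 clusters. In 5′ UTRs the median was 0.104 in eIF3g and 0.0819 in eIF3a, from 2 clusters each, against 1.03 and 1.008 for other genes. Of the 24 clusters, 21 had other mRNA clusters of the same subunit with reads within 2-fold of their own. The medians of these neighbours ranged from 1.03 to 1.10, and at most 1 neighbour lay below any cluster of the eIF3 subunit mRNAs. The 3 strong EIF3A clusters of eIF3b had no neighbour within 2-fold, so no such comparison exists for them. The number of uridines in each cluster, which limits conversions, was not analysed here, since the hg19 sequence was not at hand.

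In eIF3d the conversions behaved differently over the whole list. The other mRNA clusters had a median of 0.308 conversions per read with under 20 reads and 0.0842 with 50 or more, and no other mRNA cluster held more than 20 conversions. A value under 0.5 set nothing apart there, since it was found in 7 of 7 clusters of the eIF3 subunit mRNAs and in 94.1% of all mRNA clusters. EIF3A had 32 conversions in 3315 reads at site 1 and 39 in 2599 at site 4, more than any of the 331 others, yet only 0.00965 and 0.0150 per read. The 7 clusters of the eIF3 subunit mRNAs had between 0.00965 and 0.0634 conversions per read, all at or below the 10th percentile of the others, a limit that takes in 12.1% of all mRNA clusters of eIF3d.

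Against neighbours with reads within 2-fold, their place in eIF3d was less extreme: 10 of 27 neighbours lay below EIF3A site 2, 6 of 37 below EIF3M site 4, 6 of 71 below EIF3A site 5, 6 of 109 below EIF3B site 1 and none of 138 below EIF3M site 2. The strongest EIF3A clusters had a single neighbour each, BTG1, with 18 conversions in 2256 reads, which was lower. Whether the eIF3d conversion entries count the same thing as in the other lists is unknown, so the eIF3d values are compared only within the eIF3d list.

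**Figure D4:**
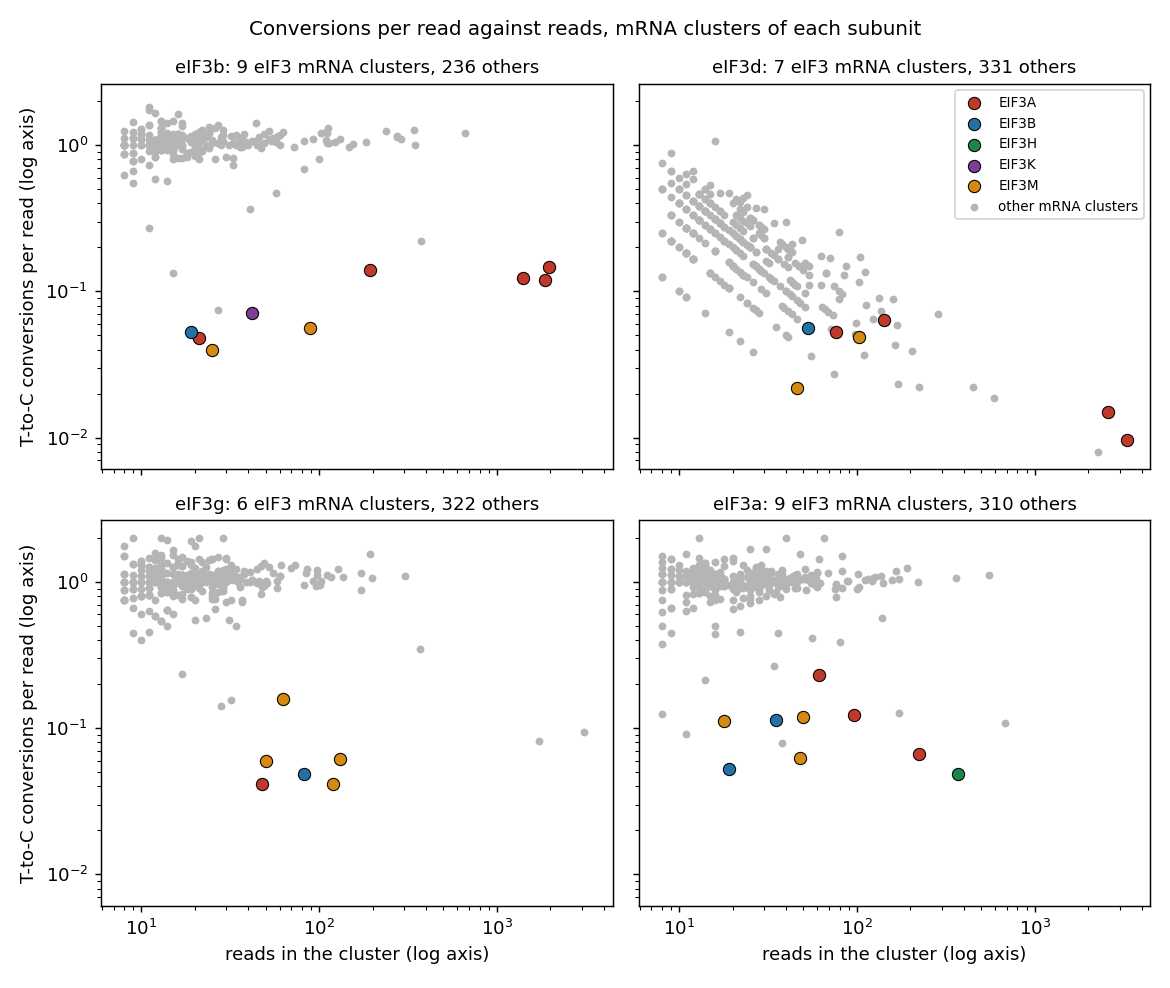
Each point is an mRNA cluster, placed by its reads (horizontal, log axis) and its T-to-C conversions per read (vertical, log axis), in a panel per subunit, with eIF3 subunit mRNAs coloured by gene and other mRNA clusters in grey. In eIF3b, eIF3g and eIF3a the coloured points lie between 0.04 and 0.23 while most grey points lie near 1 and 14 of the 868 are under 0.25, and in eIF3d the grey points run down with reads to meet the coloured ones.

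Outside eIF3d, other mRNAs with few conversions were rare. Among other mRNA clusters with at least 50 reads, the lowest in eIF3b were BTG1, which encodes an anti-proliferative protein (0.220 per read), TPT1, which encodes a translationally controlled growth-associated protein (0.474), and SLC1A5, a glutamine transporter gene (0.683). In eIF3g they were JUN, a transcription factor gene (0.0818), BTG1 (0.0946) and TPT1 (0.351), and in eIF3a BTG1 (0.108), TPT1 (0.128) and MED13, a Mediator subunit gene (0.388). In eIF3d they were BTG1 (0.0080), UBE2D2 (0.0187) and DDX39B (0.0222). All of these clusters lay in 5′ UTRs. With fewer reads, coding exon clusters of other genes were low too, named here after seeing the values. These were DICER1 (0.133 in eIF3b, 0.156 in eIF3g and 0.125 in eIF3a) and CRYGS (0.0789 in eIF3a). The rest of the 14 other clusters under 0.25 outside eIF3d were in 5′ UTRs. With at least 50 reads, the eIF3 subunit mRNAs had 5 clusters in eIF3b, 5 in eIF3g and 5 in eIF3a, and the highest of these 15 values was 0.230.

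Of the list of 14 genes of the eIF3 complex, 5 had a cluster, namely 4 of 8 core genes (EIF3A, EIF3H, EIF3K and EIF3M) and 1 of 5 genes outside the core (EIF3B), while EIF3CL, a near copy of EIF3C, was placed in neither group. No cluster was listed under EIF3C, EIF3D, EIF3E, EIF3F, EIF3G, EIF3I, EIF3J or EIF3L. Of the subunits with libraries, EIF3A and EIF3B thus had listed clusters and EIF3D and EIF3G had none. The share of all human genes with a cluster was not computed. These counts, and those of the other factor lists below, therefore describe the lists only.

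Of 36 other initiation factor genes 3 had a cluster, and of 12 elongation and termination factor genes 1. EIF5, which encodes the GTPase-activating protein of the ternary complex, had clusters of between 12 and 82 reads and was listed for all 4 subunits. EIF1, which encodes a factor of start codon selection, had 8 reads in eIF3d, 23 in eIF3g and 16 in eIF3a. EIF4G3, which encodes a cap complex scaffold, had 54 reads in eIF3b, 9 in eIF3g and 28 in eIF3a. EEF2, which encodes the translocation factor, had 14, 23, 8 and 22 reads in eIF3b, eIF3d, eIF3g and eIF3a. All 17 clusters of these 4 genes lay in 5′ UTRs. Their conversions per read in eIF3b, eIF3g and eIF3a had a median of 1.02 over 14 clusters, with a lowest value of 0.455, above the highest value of the eIF3 subunit mRNAs.

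The genes listed for all 4 subunits were last compared for the shape of their reads, as the distance between log2(summed reads + 1) profiles centred over the 4 subunits. This is a description over 4 values. EIF3A had no close match among 133 other genes: the nearest were PRCC at a distance of 4.39 and RPS2, a ribosomal protein gene, at 4.70, and the median distance was 5.82. EIF3B was nearest to ATP5B, a gene of mitochondrial ATP synthase, at 0.308, and to PRKAR2A, a regulatory subunit gene of protein kinase A, at 0.442. ATP5B had 30, 66, 136 and 82 reads in eIF3b, eIF3d, eIF3g and eIF3a. EIF3M was nearest to ITM2B, at 0.412, and to ELOVL5, a fatty acid elongase gene, at 0.537.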

How the data were processed

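Per the labels, 12 PAR-CLIP libraries were made from 293T cells. The authors deposited a table of clusters with counts of reads and counts of T-to-C conversions per cluster and subunit, not normalized per the file headers. The submitters' processing notes name hg19, cutadapt, Bowtie and bedtools. The cluster caller, its thresholds and how replicates were combined are unknown here, as is whether positions count from 0 or 1. The table has 0 further columns of values per sample.

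Clusters annotated as 5′ UTR, start codon, CDS exon or 3′ UTR were taken as mRNA clusters. Percentiles count a tied cluster as 0.5. Intervals (95%) are Wilson for shares, exact Poisson for conversions and a normal approximation from the read counts for log2 differences. Log2 values use a pseudocount of 1. Log2 differences between 2 subunits were placed only among other genes, or other sites, listed for both. Scripts ran in Python 3.11.15 with pandas 2.3.3, numpy 2.4.6 and scipy 1.17.1. The percentile code was run on simulated clusters with a large built-in difference and more reads than most clusters here. That run checks the code only and does not bear on the percentiles reported. Each fit per replicate set out at first could not be made, so no p-value is given.

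The genes, lists and thresholds were chosen with earlier results of these data known. Genes named are the 5 mRNAs, the 3 other mRNA clusters per subunit with 50 or more reads and fewest conversions per read, the 2 genes nearest in read profile, and translation factors with a cluster. A few more were named after seeing the values, as stated where they appear. Alternatives changed the denominator, the clusters compared, read limits, overlap, pseudocount and scaling. Symbols of the lists were checked against a RefSeq table of GRCh38, and none of its coordinates was used. Sequences of the clusters were not analysed here.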

Additional observations from a re-analysis of the deposited data

How the results depend on the processing

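No value for a single library is in the table, so leaving out a replicate could not be run. No paired analysis was possible because the columns carry no replicate number. The share of mRNA reads on eIF3 subunit mRNAs depends on what it is divided by: over all clusters it was 29.4% in eIF3b, 26.2% in eIF3d, 0.792% in eIF3g and 6.09% in eIF3a, with introns counted 32.1%, 29.6%, 2.13% and 6.64%, and without EIF3A 1.89%, 1.46%, 3.09% and 4.53%. The median read percentile among clusters of the same annotation was 100 in eIF3b, 100 in eIF3d, 95.3 in eIF3g and 94.6 in eIF3a. Among all clusters it was 87.0 in eIF3g, and without EIF3A, chosen after seeing the data, 74.0 in eIF3b, 87.3 in eIF3d and 77.5 in eIF3a. Per nt of cluster, also chosen after seeing the data, it was 85.2 in eIF3b. The median percentile of conversions per read was 8.45 in eIF3d and 0 in eIF3a among clusters with reads within 2-fold, 6.45 in eIF3d with 20 or more reads, and 8.84 in eIF3d and 3.42 in eIF3g among all clusters. Scaled by mRNA reads without EIF3A, the log2 difference of EIF3A was 4.20 for eIF3b and 3.78 for eIF3d over eIF3a, and by the strongest cluster 3.13 for eIF3b and -2.20 for eIF3g. Coding or 3′ UTR clusters numbered 13 without EIF3A, and the share of coding reads without it, also chosen after seeing the data, was 25.4% in eIF3b, 11.4% in eIF3d, 14.7% in eIF3g and 9.64% in eIF3a. The other 34 of 69 values stayed within the 95% interval of the value reported or, for counts of sites and clusters, within 1.5 times, and none changed sign. For median percentiles that interval treats the median place as a share of the other clusters. It does not measure the error of the median and serves as a yardstick only. The causes of these shifts were not tested beyond the change of denominator or genes that makes them. With 5 or fewer conversions in 17 of 31 clusters, conversions per read of single weak clusters have wide intervals.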
